A study of Caenorhabditis elegans with 63 samples.

Results

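The comparison described here is that of drsh-1(cdb328) worms with wild type worms at the L4 stage, the last larval stage of Caenorhabditis elegans. Its members are 6 of the 63 libraries of the series, 3 of drsh-1(cdb328) and 3 of wild type, all made with the NEBNext small RNA kit from total RNA of whole worms grown at 20 °C. The genotype of the tested worms was given as drsh-1 (cdb328) on chromosome I, with no other allele, and that of the others as wildtype. The design text of the series calls the strains deletion mutants of drsh-1, but the sources used here do not say what cdb328 removes. Small RNA reads do not measure drsh-1 mRNA. Nothing says that the replicates came from separate cultures, so p-values measure the spread between these samples.

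drsh-1 encodes Drosha, the RNase III enzyme of the nuclear Microprocessor complex, which cuts the hairpin of a microRNA (miRNA) out of its long primary transcript. Dicer then cuts the hairpin into a short duplex of a 5p and a 3p strand, and one strand, the guide, usually stays in Argonaute while its partner is degraded. A mirtron is a miRNA hairpin released by splicing in place of Drosha. In the names below a star is copied from the strand names of the deposited table. It does not always mark the rarer strand in these libraries. miR-34-5p* made up 94.4% of its hairpin's reads in drsh-1(cdb328) and 93.5% in wild type, and miR-41-5p* 87.1 and 85.9%.

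The libraries held 2095735, 2191093 and 2511365 miRNA reads in drsh-1(cdb328) and 2423350, 2835112 and 2191603 in wild type. Plant spike-ins made up 25.1 to 31.7% of all counted reads in drsh-1(cdb328) and 23.8 to 29.2% in wild type. The table lists 276 arms (5p or 3p strands) of 138 hairpins, of which 215 arms had enough reads to test. The other 61 never passed 11 reads in one of the 6 libraries, and 18 of them had none. The larval timing miRNAs lin-4 and let-7 and the muscle miRNA miR-1 were well represented, while the neuronal miR-124-3p had 6.57 to 12.2 CPM (reads relative to the library's total, scaled between libraries by TMM) in drsh-1(cdb328) and 6.99 to 10.6 CPM in wild type. The ratio of worm miRNA to spike-in reads in drsh-1(cdb328) was 0.933 of that in wild type (exact two-sided permutation test, p = 0.6, where the smallest p possible is 0.1).

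A set of miRNAs was nearly lost from drsh-1(cdb328) larvae while most others stayed within 2-fold of wild type. miR-71-5p, the second most abundant arm of wild type larvae, had a log2 fold change of -4.57, miR-54-3p of -4.08, miR-241-5p of -3.45 and miR-790-5p of -5.45. No arm rose by as much: the largest rise, of the neuronal lsy-6-3p, was 3.17-fold. Among the 215 arms, 123 (57.2%) passed the test in edgeR's quasi-likelihood fit at an adjusted p of 0.05, with 56 (26%) lower and 67 (31.2%) higher in drsh-1(cdb328). At least 2-fold differences were mostly falls, in 38 arms (17.7%), against 9 arms (4.19%) that rose that far. The median change over all 215 arms was 0.04 on the log2 scale. The number of higher arms was 34 without wild type replicate 1 and 38 without wild type replicate 2, while that of lower arms stayed between 49 and 61 whichever library was left out. In RNA of whole worms, fewer cells of a type and less RNA per cell cannot be told apart.

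**Figure D1:**
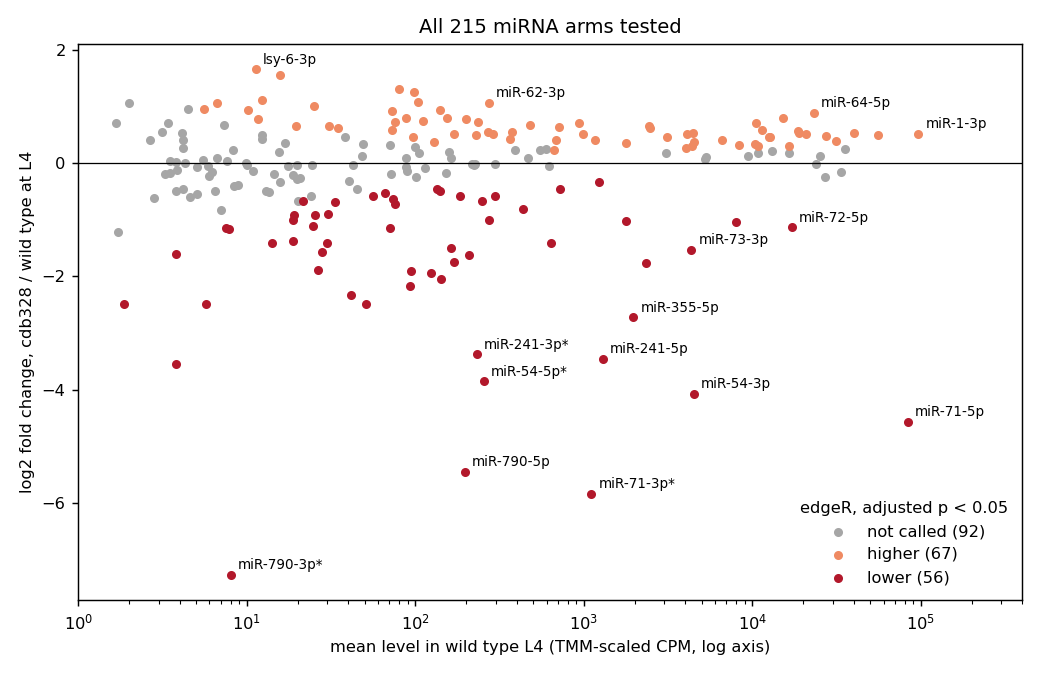
Log2 fold change of each of the 215 arms tested, drsh-1(cdb328) over wild type at L4, against its mean level in 3 wild type libraries (TMM-scaled CPM, log axis). Dark red points passed the test as lower (56), orange as higher (67) and grey ones did not pass (92). The rises end at 1.66, while the falls go down to -5.84 among arms with reads in every library. miR-790-3p*, the lowest point, had no reads in drsh-1(cdb328), and its plotted value is a fitted one.

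The falls and the rises differ in how far they depend on the scaling between libraries. All 56 lower arms were lower and past the threshold with DESeq2's size factors (56 lower, 68 higher), with total counts (64 and 43), and with the spike-ins as the scale (65 and 15). The number of higher arms moved with the scaling more than the number of lower ones: total counts moved the median of all arms by -0.18 on the log2 scale and the spike-ins by -0.29. Only 15 arms were higher under all 5 of TMM, DESeq2's size factors, total counts, spike-ins and TMM computed before the filter on low counts. With mir-62, the only mirtron tested, as the scale, the median moved by -1.08, 170 arms were lower and 1 was higher, miR-1821-3p.

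**Figure D2:**
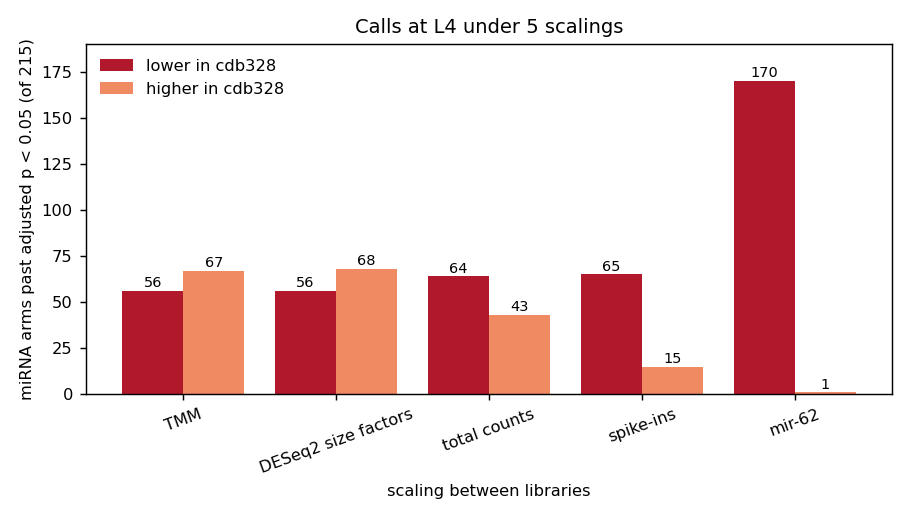
Number of the 215 arms past an adjusted p of 0.05, lower (dark red) and higher (orange) in drsh-1(cdb328) at L4, under 5 scalings between libraries. The lower count stays between 56 and 65 for 4 of the scalings and is 170 on the mir-62 scale, while the higher count ranges over 67, 68, 43, 15 and 1.

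miR-71, which in worms is known for promoting long life and stress survival, carried the change with the most reads. miR-71-5p had 3656, 3371 and 3474 CPM in drsh-1(cdb328) libraries, against 82618, 77174 and 89976 CPM in wild type. That is 0.363 to 0.375% of the miRNA reads in drsh-1(cdb328) and 9.35 to 10.5% in wild type. The groups lay far apart, and the fall of 4.57 on the log2 scale had a standard error (SE) of 0.15 (adjusted p = 3.48e-18). Its partner miR-71-3p* had 16.4, 19.7 and 21.3 CPM in drsh-1(cdb328) and 1104, 1054 and 1158 CPM in wild type, a fall of 5.84 (SE 0.18, adjusted p = 1.78e-18). mir-71 lies on chromosome I in an intron of ppfr-1, on that gene's strand. So does mir-2, whose miR-2-3p had 140, 177 and 151 CPM in drsh-1(cdb328) and 303, 220 and 219 CPM in wild type, a fall of 0.66 (SE 0.17, adjusted p = 0.00165).

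Summed, the 56 lower arms held 2.28 to 2.47% of the miRNA reads in drsh-1(cdb328) libraries and 15.3 to 16.3% in wild type. Without miR-71-5p, the other 55 held 1.91 to 2.09% in drsh-1(cdb328) and 5.80 to 5.97% in wild type. miR-71-5p alone made up most of the difference in this sum.

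Among the other strong falls, miR-54, one of the miR-51 family needed in embryos, lost both strands. miR-54-3p had 271, 254 and 274 CPM in drsh-1(cdb328) and 5312, 4299 and 3872 CPM in wild type (log2 change -4.08, SE 0.13, adjusted p = 3.48e-18). miR-54-5p* had 21.6, 11.9 and 19.4 CPM in drsh-1(cdb328) and 248, 250 and 264 CPM in wild type (-3.85, SE 0.18). miR-790-5p stood at 5.16, 2.46 and 5.71 CPM in drsh-1(cdb328), against 210, 205 and 175 CPM in wild type (-5.45, SE 0.28, adjusted p = 3.59e-14). No read of miR-790-3p* was counted in the drsh-1(cdb328) libraries, against 6.73 to 9.42 CPM in wild type. With a floor of 3 reads in each drsh-1(cdb328) library it was at least 6.35-fold lower.

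miR-355-5p had 302, 290 and 302 CPM in drsh-1(cdb328) and 2171, 1924 and 1792 CPM in wild type, a fall of 2.72 (SE 0.13, adjusted p = 6.96e-15). miR-789-2-5p had 8.92, 9.04 and 6.85 CPM in drsh-1(cdb328) and 45.5, 40.2 and 38.5 CPM in wild type (-2.32, SE 0.27). The second copy of this hairpin, miR-789-1-5p, had 12.7, 17.3 and 19.0 CPM in drsh-1(cdb328) and 33.7, 30.6 and 27.1 CPM in wild type (-0.89, SE 0.24). Reads that such near-identical copies share cannot be assigned with certainty. In each of these arms the drsh-1(cdb328) libraries lay below all wild type libraries, as they did in 63 of the 215 arms (29.3%), while they lay above them in 73 (34%).

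By fitted values, falls of at least 10-fold were found in 9 arms, and of at least 4-fold in 16. The 9 include miR-790-3p*, for which the floor of 3 reads gives only a fall of at least 6.35-fold. They also include miR-4806-5p, which rests on few reads, with means of 0.264 CPM in drsh-1(cdb328) and 3.78 CPM in wild type (-3.55, SE 0.74). The 38 arms that fell at least 2-fold came from 29 hairpins, and 10 of them averaged at least 1000 CPM in wild type. Further members with smaller falls included miR-1817-5p (-1.75, SE 0.14), miR-788-3p (-1.62, SE 0.17), miR-248-3p (-1.40, SE 0.13) and miR-86-5p (-1.03, SE 0.11). The partner of miR-788-3p, miR-788-5p*, fell by 1.57 (SE 0.25), and the ratio of the 2 strands moved by 0.04 on the log2 scale (SE 0.31, adjusted p = 0.917).

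**Figure D3:**
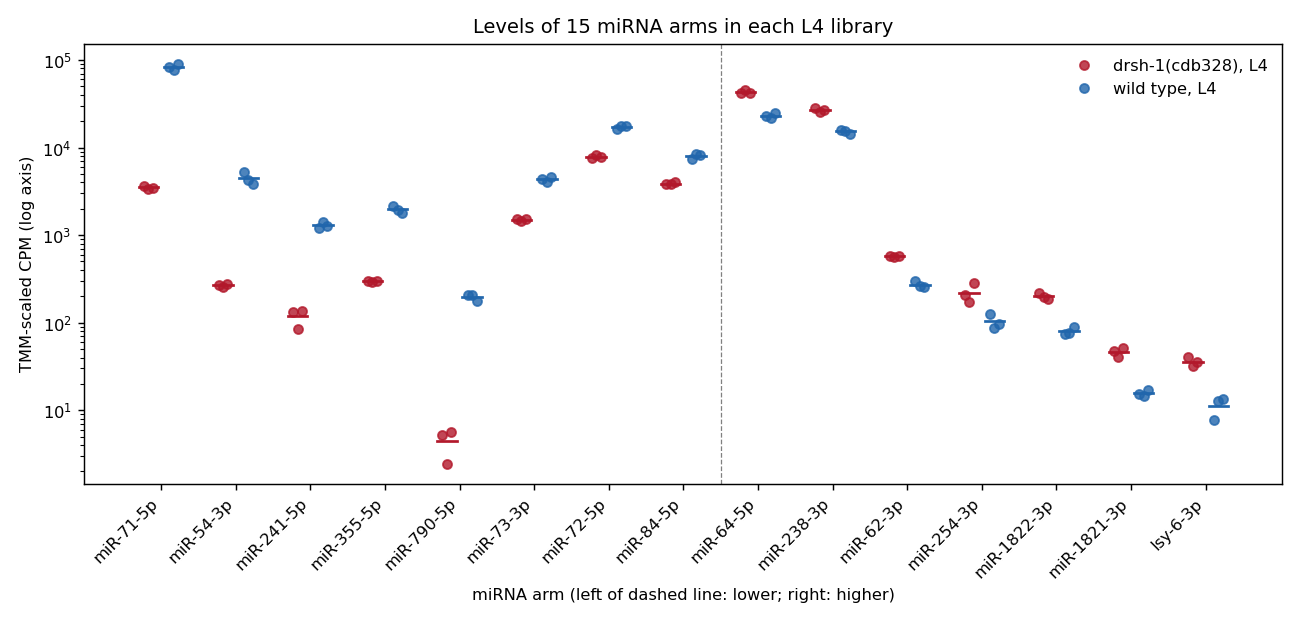
TMM-scaled CPM (log axis) of 15 arms in each L4 library, drsh-1(cdb328) in red to the left of wild type in blue, with bars for the mean of 3 libraries. The 8 arms left of the dashed line were lower and the 7 right of it higher in drsh-1(cdb328). No red point overlaps the blue ones of its arm, but most of these arms were picked by a rule that asks for this. Of all 215 arms tested, 136 (63.3%) did not overlap.

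The let-7 relatives miR-48, miR-84 and miR-241, which act together on larval timing, did not change together. miR-241-5p had 131, 85.0 and 137 CPM in drsh-1(cdb328) and 1208, 1393 and 1269 CPM in wild type (-3.45, SE 0.17, adjusted p = 8.96e-15), and miR-241-3p* fell by 3.38 (SE 0.18). miR-84-5p had 3800, 3809 and 4034 CPM in drsh-1(cdb328) and 7326, 8404 and 8238 CPM in wild type (-1.04, SE 0.10, adjusted p = 1.01e-08). miR-48-5p had 42218, 40008 and 40260 CPM in drsh-1(cdb328) and 29298, 33090 and 31108 CPM in wild type (0.39, SE 0.10, adjusted p = 0.00264). The miR-48-5p value was 0.10 with the spike-ins as scale, where it did not pass (adjusted p = 0.707), and it no longer passed without wild type replicate 1 or replicate 2.

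let-7-5p itself, the regulator of the step from larva to adult, had 14088, 11995 and 14188 CPM in drsh-1(cdb328) and 10559, 10825 and 11116 CPM in wild type. Its change of 0.31 (SE 0.12, adjusted p = 0.0292) was 0.12 with total counts and 0.01 with spike-ins and failed the test on both, as it did with TMM without wild type replicate 1 or 2, or without drsh-1(cdb328) replicate 1 or 3. lin-4-5p, the first miRNA of the larval timing pathway, had 3311, 3576 and 3631 CPM in drsh-1(cdb328) and 3175, 3075 and 2971 CPM in wild type (0.19, SE 0.10, adjusted p = 0.119). Of the 15 developmental timing arms tested, 6 were lower and 5 higher, against 26% and 31.2% of all 215 arms. Their median was -0.19 against 0.04 for all arms, and on the spike-in scale 6 were lower and 0 higher.

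Stress and lifespan miRNAs went both ways, as all arms did. Of 13 arms tested, 3 were lower, 2 of them those of mir-71, and 4 were higher. Over all 215 arms 26% were lower and 31.2% higher, so the counts do not set this list apart. On the spike-in scale 5 of the 13 were lower and 1 higher, against 65 and 15 of all 215. miR-238-3p had 27948, 25391 and 26774 CPM in drsh-1(cdb328) and 15864, 15545 and 14417 CPM in wild type (0.81, SE 0.09, adjusted p = 8.34e-08), a rise that also passed on the spike-in scale (0.51). miR-34-5p* was at -0.01 (SE 0.13, adjusted p = 0.984) and miR-228-5p at 0.34 (SE 0.10, adjusted p = 0.00734). miR-246-3p was at 0.38 (SE 0.13, adjusted p = 0.0144), and neither miR-228-5p nor miR-246-3p passed with total counts. Both also failed without wild type replicate 1 or 2, and miR-246-3p without drsh-1(cdb328) replicate 1.

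In the miR-72 family, 5 of the 6 arms tested, the strands of mir-72, mir-73 and mir-74, were lower and none was higher. This held under each of TMM, DESeq2's size factors, total counts and spike-ins. With TMM 26% of all 215 arms were lower and 31.2% higher, and with spike-ins 65 were lower and 15 higher. The family's median was -1.33 against 0.04 for all arms. miR-72-5p had 7684, 8178 and 7704 CPM in drsh-1(cdb328) and 16408, 17470 and 17590 CPM in wild type (-1.13, SE 0.09, adjusted p = 1.83e-10). miR-73-3p had 1517, 1456 and 1532 CPM in drsh-1(cdb328) and 4358, 4039 and 4590 CPM in wild type (-1.53, SE 0.11). The exception was miR-74-3p, with 129, 122 and 111 CPM in drsh-1(cdb328) and 108, 113 and 95.3 CPM in wild type (0.19, SE 0.16, adjusted p = 0.323).

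The miR-51, miR-58 and miR-44 families held both falls and rises. Over all 215 arms 26% were lower and 31.2% higher, the shares to set beside these counts and those of the families below. In the miR-51 family 4 of 11 arms were lower, the pair of mir-54, miR-53-5p (-0.45, SE 0.11) and miR-55-5p* (-0.91, SE 0.27), and 3 were higher, while on the spike-in scale 5 were lower and 0 higher. In the miR-58 family, the worm relatives of fly bantam, 4 of 9 arms were lower, all of them starred strands, and 2 were higher. miR-58a-3p had 63306, 52166 and 58321 CPM in drsh-1(cdb328) and 37615, 43109 and 39577 CPM in wild type (0.53, SE 0.14, adjusted p = 0.00326), and miR-80-3p was at 0.50 (SE 0.10). Neither passed on the spike-in scale, at 0.23 and 0.22, and miR-58a-3p did not pass without wild type replicate 1. In the miR-44 family 2 of 7 arms were lower and 4 higher, and 2 and 0 on the spike-in scale. Its miR-44-3p and miR-45-3p, at 0.47 each, have near-identical sequences, so their reads cannot be assigned with certainty.

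In the miR-64 family 6 of 10 arms were higher and none was lower, and on the spike-in scale 1 was higher. That arm, miR-64-5p, had 41585, 45202 and 42356 CPM in drsh-1(cdb328) and 23007, 21695 and 24860 CPM in wild type (0.89, SE 0.10, adjusted p = 3.89e-08). In the embryonic miR-35 family 6 of 16 arms were higher and none was lower with TMM, and 1 was higher and 1 lower with spike-ins as the scale. miR-35-3p had 29604, 29822 and 30015 CPM in drsh-1(cdb328) and 19337, 17541 and 25338 CPM in wild type (0.52, SE 0.17, adjusted p = 0.0131), and it did not pass without wild type replicate 1 or replicate 2. In the miR-2 family 2 of 8 arms were lower and 1 higher. On the mir-62 scale the directions turned: 9 of the miR-64 and 12 of the miR-35 family arms were lower.

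Tissue-restricted miRNAs were split as well, and so were all 215 arms, of which 26% were lower and 31.2% higher. With 7 neuronal and 3 intestinal arms tested, the counts below do not set these lists apart. The muscle miRNA miR-1-3p, the most abundant arm, had 153123, 120798 and 140971 CPM in drsh-1(cdb328) and 87361, 103059 and 98488 CPM in wild type (0.52, SE 0.13, adjusted p = 0.00119), and 0.22 on the spike-in scale (adjusted p = 0.382). It did not pass without wild type replicate 1. Among 7 neuronal arms, 2 were lower, those of mir-790, and 2 higher. lsy-6-3p, which sets the left-right difference of a pair of taste neurons, had 40.4, 31.6 and 35.8 CPM in drsh-1(cdb328) and 7.74, 12.8 and 13.3 CPM in wild type (1.66, SE 0.25, adjusted p = 4.01e-06). miR-137-3p was at 0.68 (SE 0.10, adjusted p = 5.6e-06), and at 0.38 (SE 0.20, adjusted p = 0.125) on the spike-in scale, where 1 of the 7 neuronal arms was higher and 2 were lower. Of 3 intestinal arms tested, 1 was higher and 1 lower. miR-240-5p* was at -0.49 (SE 0.16, adjusted p = 0.00985), which did not pass without drsh-1(cdb328) replicate 3. miR-786-3p was at 0.56 (SE 0.20, adjusted p = 0.0194), which did not pass without wild type replicate 1 or 2 or without drsh-1(cdb328) replicate 2, and miR-240-3p at -0.04 (SE 0.13, adjusted p = 0.835). With total counts and with spike-ins, 0 of the 3 were higher and 1, miR-240-5p*, was lower.

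The mirtron miR-62-3p, cut from an intron of ugt-50, had 576, 569 and 579 CPM in drsh-1(cdb328) and 302, 261 and 255 CPM in wild type (1.08, SE 0.14, adjusted p = 5.15e-07), and 0.79 on the spike-in scale. miR-1821-3p had 46.9, 41.1 and 51.0 CPM in drsh-1(cdb328) and 15.5, 14.6 and 16.9 CPM in wild type (1.57, SE 0.20). miR-1822-3p had 218, 196 and 185 CPM in drsh-1(cdb328) and 73.7, 76.6 and 90.2 CPM in wild type (1.32, SE 0.15). These 3 arms, miR-254-3p (1.09, SE 0.19), both arms of mir-1829a (1.27 for miR-1829a-3p*, 0.95 for miR-1829a-5p) and lsy-6-3p belong to the 15 that were higher in each of the 5 scalings that do not rest on mir-62.

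The strand ratio of a hairpin within one library does not depend on the scaling between libraries. Of 86 hairpins with both strands tested, the log2 ratio of 5p to 3p differed in 30 (34.9%; limma on the log ratios, adjusted p of 0.05). In 27 of them (31.4%) the strand that is rarer in wild type lost share in drsh-1(cdb328), and in 3 (3.49%) it gained. The libraries did not overlap in any of the 27, but these were picked by the test on the same libraries. The lack of overlap is thus no further evidence, and it was not counted over all 86. Over all 86 hairpins the rarer strand's ratio fell in 59, with a median change of -0.42 on the log2 scale. Where reads are few, the sign can rest on the pseudocount of 1. miR-790-3p* made up 3.97% of its hairpin's reads in wild type and 0% in drsh-1(cdb328). Its ratio still counted as a rise (1.11, SE 0.48, adjusted p = 0.0734). Of 39 hairpins with a mean of at least 100 reads in both strands, 22 (56.4%) differed, with 20 losses and 2 gains. In these 39 the rarer strand's ratio fell in 32, with a median change of -0.56. The split moved with the settings. With a pseudocount of 10 in place of 1, 40 of the 86 hairpins differed, with 32 losses and 8 gains. When only the groups compared were fitted, 38 differed, with 32 losses and 6 gains. The rarer strand was the 5p in 19 of the 27 and the 3p in 8, and its median share of the hairpin's reads was 0.546% in drsh-1(cdb328) and 1.25% in wild type.

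In miR-82, a member of the miR-58 family, the starred 5p strand made up 0.0850, 0.120 and 0.127% of the reads in drsh-1(cdb328) and 0.374, 0.411 and 0.468% in wild type. Its ratio to miR-82-3p fell by 1.92 (SE 0.24, adjusted p = 1.51e-05). In mir-83 the 5p strand made up 10.7, 10.5 and 14.1% in drsh-1(cdb328) and 29.2, 27.7 and 31.6% in wild type (log2 ratio -1.65, SE 0.22, adjusted p = 1.59e-05). In mir-87 it made up 0.285, 0.478 and 0.301% in drsh-1(cdb328) and 1.56, 1.30 and 1.63% in wild type (-2.05, SE 0.32). The rarer strand was also common in mir-74, where 5p made up 27.4% in drsh-1(cdb328) and 38.4% in wild type (-0.73, SE 0.27, adjusted p = 0.0387).

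The reverse was seen in mir-259, mir-1829c and mir-239a. In mir-259 the 5p strand, the main one, made up 67.3, 75.7 and 70.0% of the reads in drsh-1(cdb328) and 87.2, 87.7 and 89.0% in wild type (-1.56, SE 0.23, adjusted p = 4.87e-05). In mir-1829c the 5p strand made up 59.2, 66.6 and 59.5% in drsh-1(cdb328) and 44.5, 42.3 and 38.9% in wild type, so that the more abundant strand changed. In mir-239a the 5p strand made up 65.5, 59.5 and 60.4% in drsh-1(cdb328) and 56.8, 38.5 and 37.8% in wild type (1.02, SE 0.33, adjusted p = 0.0228). It was thus rarer by the wild type mean, but not in wild type replicate 1. How well a kit captures a strand depends on its sequence, so these ratios were compared between genotypes and not between hairpins.

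Read with the level of each strand, 10 hairpins had a higher main strand beside a lower partner, among them mir-80, mir-58a, mir-55 and mir-83. In 10 more both strands were lower, as in mir-71, mir-54, mir-241, mir-84 and mir-790, and in another 10 the partner was lower while the main strand did not pass. These pairings depend on the scaling. On the spike-in scale 1 hairpin, mir-1822, had a higher main strand beside a lower partner, 11 had both lower, and 23 had a lower partner while the main strand did not pass, among them mir-80, mir-58a, mir-55 and mir-83. Neither strand passed there in 38. Among the 83 starred arms tested, 30 (36.1%) were lower and 10 (12%) higher, with a median of -0.32, and on the spike-in scale 37 were lower and 3 higher, with a median of -0.61. Among the 132 other arms, 26 (19.7%) were lower and 57 (43.2%) higher, with a median of 0.31, and on the spike-in scale 28 were lower and 12 higher, with a median of 0.01.

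**Figure D4:**
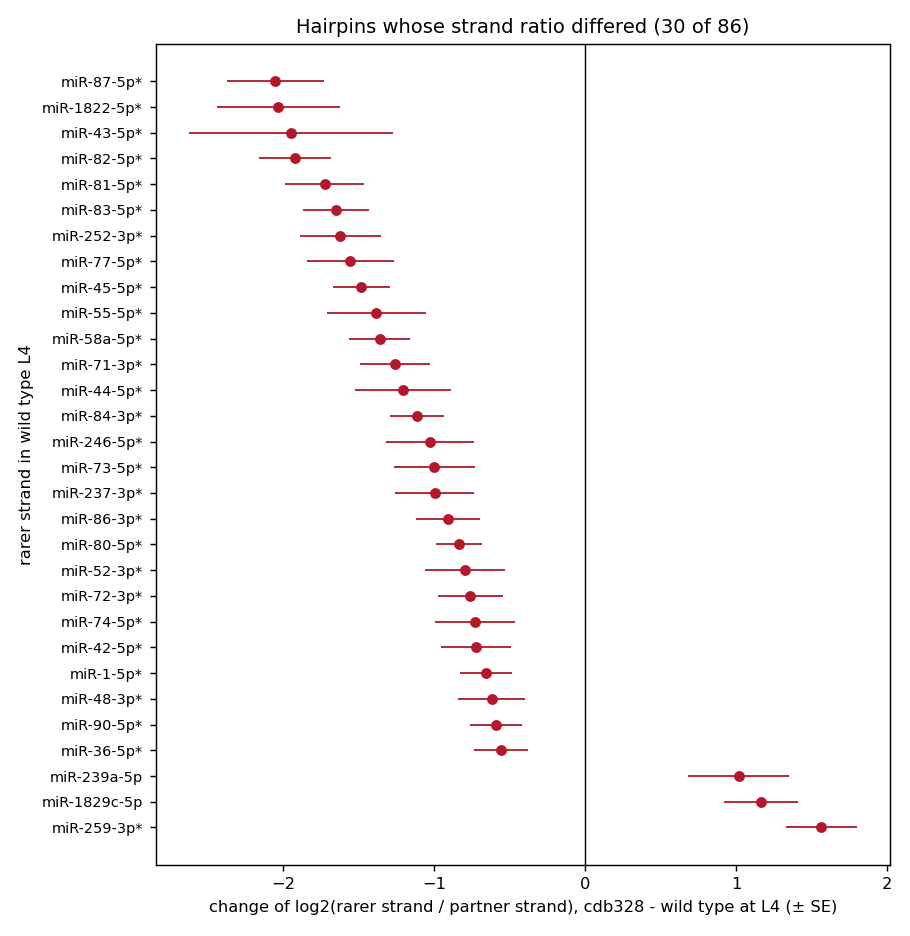
Change of the log2 ratio of the rarer strand to its partner, drsh-1(cdb328) minus wild type at L4, with SE, for the 30 hairpins whose ratio differed, named by the strand that is rarer in wild type. The 27 losses lie left of zero, down to -2.05 for miR-87-5p*, and the 3 gains (miR-239a-5p, miR-1829c-5p, miR-259-3p*) right of it.

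Hairpins that lie next to each other on one strand may share a primary transcript, and the ratio of neighbours within a library is again independent of the scaling. Positions are those of Ensembl's WBcel235 annotation, matched by symbol. Of 26 neighbouring pairs at most 5 kb apart, 12 differed in the ratio of their main arms (46.2%; limma, adjusted p of 0.05). mir-54, mir-241, mir-790 and mir-73 each lay beside a hairpin whose main arm was not lower.

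mir-54 (chrX:13144996-13145094, minus strand) lies 71 bp upstream of mir-55 (chrX:13144827-13144924). miR-55-3p had 37358, 39166 and 37746 CPM in drsh-1(cdb328) and 27660, 25273 and 28610 CPM in wild type (0.49, SE 0.09), and the ratio of miR-55-3p to miR-54-3p rose by 4.55 (SE 0.13, adjusted p = 3.76e-16). mir-241 (chrV:14366188-14366283, minus strand) lies 1678 bp upstream of mir-48 (chrV:14364412-14364509), and the ratio of miR-48-5p to miR-241-5p rose by 3.87 (SE 0.13, adjusted p = 5.32e-15). mir-790 (chrIV:5566422-5566491, plus strand) lies 4299 bp downstream of mir-228 (chrIV:5562025-5562122). The ratio of miR-790-5p to miR-228-5p fell by 5.75 (SE 0.31, adjusted p = 6.92e-12). In mir-73 (chrX:2368765-2368863, plus strand) and mir-74 (chrX:2369043-2369139), 179 bp apart, the ratio of miR-74-3p to miR-73-3p rose by 1.72 (SE 0.23, adjusted p = 3.98e-06).

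Further differences lay within other clusters. miR-794-5p fell by 1.74 relative to miR-795-5p (SE 0.37, adjusted p = 0.000569), and miR-65-5p by 0.89 relative to miR-64-5p (SE 0.08, adjusted p = 1.44e-08), whose hairpins lie 44 bp apart. miR-357-3p rose by 1.08 relative to miR-358-3p (SE 0.34, adjusted p = 0.0112). In the cluster of mir-35 to mir-41, 1 of the 6 neighbouring pairs passed, mir-40 over mir-39, at 0.27 (SE 0.11, adjusted p = 0.0441).

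**Figure D5:**
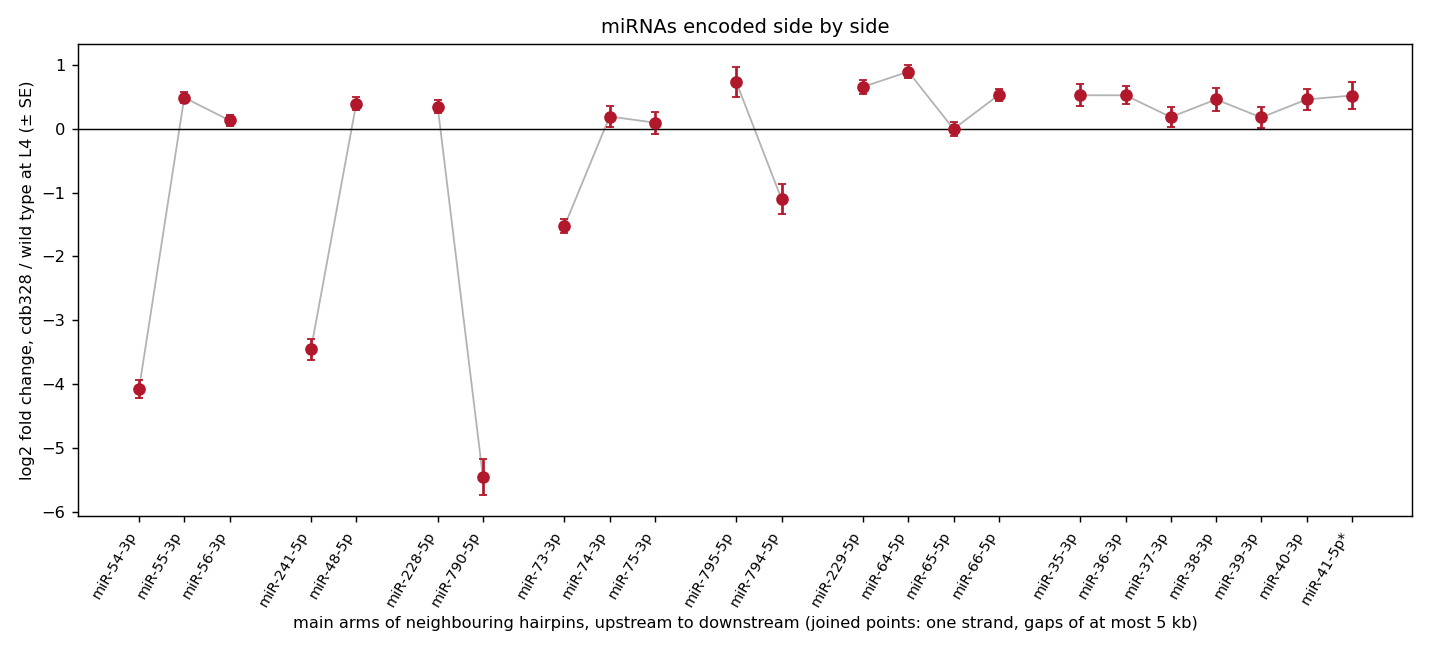
Log2 fold change of the main arm of neighbouring hairpins, drsh-1(cdb328) over wild type at L4, with SE, from upstream to downstream within each cluster. miR-54-3p, miR-241-5p, miR-790-5p, miR-73-3p and miR-794-5p lie below -1 while miR-55-3p, miR-48-5p, miR-228-5p, miR-74-3p and miR-795-5p lie between 0.19 and 0.73, and the cluster of mir-35 to mir-41 stays within 0.18 to 0.52.

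Position in the genome and abundance were set beside the changes of the 129 hairpins with a main arm tested, of which 26 were lower and 55 higher. Of 75 intergenic hairpins 16 were lower, of 32 in an intron on the gene's strand 6, and of 16 in an intron on the opposite strand 2. Among the 43 most abundant main arms in wild type 5 were lower and 26 higher, and among the 43 least abundant 10 were lower and 7 higher. The higher counts depend on the scaling: on the spike-in scale 29 of the 129 were lower and 12 higher, with 6 lower and 2 higher among the most abundant, and 12 lower and 4 higher among the least abundant. Across the 129 main arms, Spearman's rho of the log2 fold change with abundance was 0.10, as a description over arms of the same libraries.

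The same allele in Adults, compared with 3 wild type Adult libraries of its own, gave 67 lower arms (31.2%) and 39 higher ones (18.1%). Of the 56 arms lower at L4, 52 were lower in Adults (92.9% of the L4 list and 77.6% of the Adult list), and of the 67 higher ones 36 were higher (53.7% and 92.3%). None was called in opposite directions. The strand ratio differed in 21 of the 86 hairpins in Adults (24.4%), with 18 losses of the strand rarer in wild type L4 (20.9%), and 14 of the 27 losses at L4 passed in Adults too. All 12 neighbouring pairs that differed at L4 differed in Adults in the same direction, where 16 of 26 (61.5%) differed.

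The difference between the L4 and the Adult effect passed the test in 7 arms (3.26%), 5 with a positive (2.33%) and 2 with a negative difference (0.93%). miR-355-5p fell by 2.72 at L4 and by 1.45 in Adults, a difference of -1.27 (SE 0.17, adjusted p = 3.64e-05). miR-71-5p fell by 4.57 at L4 and by 5.26 in Adults, a difference of 0.69 (SE 0.18, adjusted p = 0.0432). Of the 6 arms with the largest such differences, miR-355-5p was the one that passed in each of the 12 fits that left out a library, and the number of arms that passed ranged from 1 to 9 over these fits.

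A second drsh-1 allele, cdb330, was compared at L4 with the same 3 wild type libraries, so the effects of the alleles share their controls and were not tested against each other. The log2 fold change of miR-355-5p was -2.72 in drsh-1(cdb328) and -3.85 in drsh-1(cdb330). miR-71-5p was at -4.57 in drsh-1(cdb328) and -0.55 in drsh-1(cdb330). The other leading falls of drsh-1(cdb328) stood at -0.10 for miR-54-3p, 0.84 for miR-241-5p and 0.51 for miR-790-5p in drsh-1(cdb330).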

How the data were processed

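Small RNA was cloned with the NEBNext kit from Trizol-extracted RNA of whole worms, per the labels' protocols. The deposited table holds reads per mature miRNA arm and per plant spike-in, per the file headers, and the submitters' processing notes name HTSeq without a version. Not given in the sources used here were the aligner, the trimming, the build, the miRNA annotation and the amount of spike-in RNA. Of the 1656 miRNA values of the 6 L4 libraries, 104 (6.28%) were not whole and lay midway between neighbouring whole numbers, so the table the authors deposited was read as estimated counts, and these expected counts were rounded to whole numbers.

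Arms were filtered with edgeR's filterByExpr (minimum count 10, minimum total 15), then scaled by TMM without the 10 spike-ins. edgeR 4.0.16 (R 4.3.3; glmQLFit, glmQLFTest, 1 coefficient per group) was fitted to 18 libraries (wild type, cdb328 and cdb330, L4 and Adult, 3 each), with Benjamini-Hochberg adjustment over the 215 arms tested and a threshold of 0.05. The biological coefficient of variation was 0.123. Each standard error was derived from the F statistic of its contrast. Log2 ratios of 5p to 3p, and of the main arms of neighbours (higher mean CPM over the 18 libraries), were formed with a pseudocount of 1 and tested with limma 3.58.1 with a trend. Hairpin positions came from Ensembl's WBcel235 annotation by symbol for 136 of 138 hairpins, all but let-7 and mir-137. No pair of same-group L4 libraries agreed within sampling noise (lowest chi-square per degree of freedom 22.6). The scripts were tested on simulated data.

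Named were the 14 largest falls and 12 largest rises among called arms that averaged 10 CPM or more and did not overlap between groups. To these were added the 10 most abundant arms, the 8 largest strand ratio and 6 largest neighbour changes, the 6 largest stage differences and a fixed set of known miRNAs. Not all of them are printed, and other arms of the lists or of the 15 with stable rises were named after their values were seen. The members and lists were chosen with earlier results of these data known. Alternatives were DESeq2's size factors, DESeq2 1.42.0's Wald test, total counts, spike-ins, mir-62, no filter, only the groups compared, the replicate number as a block, other pseudocounts and minimum counts, and each library left out. TMM before the filter was added after seeing the data.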

Additional observations from a re-analysis of the deposited data

Results flagged for a closer look

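A test of the difference between the L4 and the Adult effect of cdb328 (edgeR, adjusted p of 0.05) picked out 7 arms. miR-355-5p fell more at L4 than in Adults (difference -1.27 on the log2 scale, SE 0.17, adjusted p = 3.64e-05), as did miR-82-5p* (-1.08, SE 0.30, adjusted p = 0.0484). miR-71-5p (0.69, SE 0.18, adjusted p = 0.0432), miR-73-3p (0.59, SE 0.15, adjusted p = 0.0422) and miR-72-5p (0.55, SE 0.13, adjusted p = 0.0240) fell less at L4. miR-240-5p* fell by 0.49 at L4 and by 1.30 in Adults (0.80, SE 0.22, adjusted p = 0.0484). miR-42-3p was at 0.09 at L4, where it did not pass, and at -0.80 in Adults (0.89, SE 0.23, adjusted p = 0.0422). Of the 6 with the largest differences, all but miR-355-5p failed the test in 7 to 10 of the 12 fits that left out a library. At an unadjusted p of 0.05, 52 of the 215 arms passed.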

How the results depend on the processing

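The 56 lower arms were lower and past the threshold under each scaling tried and without the filter, with 53 of them remaining when only the groups compared were fitted and 55 in DESeq2's Wald test. No arm was called in opposite directions except on the mir-62 scale, where 36 were. The count of higher arms was 43 with total counts and without the filter, 42 with TMM before the filter, 15 with spike-ins and 1 on the mir-62 scale, against 67. At least 2-fold rises numbered 4 with total counts, with TMM before the filter and with only the groups compared, 5 without the filter, 3 with spike-ins and 0 on the mir-62 scale, against 9. With spike-ins, 80 arms passed in all against 123, and this fit estimated a single spread for all arms. On the mir-62 scale, 170 arms were lower and 109 at least 2-fold lower, against 56 and 38. The stage difference passed in 1 arm with DESeq2's size factors and with TMM before the filter, 2 with spike-ins and without the filter, 45 on the mir-62 scale, 11 with only the groups compared and 12 in DESeq2's Wald test, against 7. Of the 26 neighbouring pairs, 12 differed, and 6 when at most 1 kb was allowed, where fewer pairs were tested. Except where the construction is named, the cause was not tested.

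Leaving out each library in turn gave 95 to 113 arms in all, 49 to 61 lower, 34 to 62 higher, 34 to 41 at least 2-fold lower and 5 to 9 at least 2-fold higher. The 34 and 38 higher arms came without wild type replicate 1 and replicate 2. The stage difference then passed in 1 to 9 arms, the strand ratio in 25 to 36 hairpins, and the neighbour ratio in 11 to 13 pairs, while the ratio of worm to spike-in reads was 0.877 to 1.01.

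The replicate numbers did not pair the libraries: same-numbered libraries correlated in their deviations at 0.02, -0.04 and 0.07. With the replicate number as a block, 57 arms were lower and 68 higher, and each of these counts stayed within 1.5 times its value without the block.

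Among the arms recomputed one by one, 9 values that passed in neither fit changed sign with other scalings, filters or libraries, such as miR-74-3p and lin-4-5p on the spike-in scale (-0.10 and -0.09). On the mir-62 scale, which rests on 1 arm, these turned from positive to negative: miR-238-5p* at -0.0057, miR-259-3p* at -0.068, miR-1829a-5p at -0.14, miR-795-3p* at -0.14, miR-1829c-5p at -0.15, miR-64-5p at -0.19, miR-1-3p at -0.57, miR-80-3p at -0.58, miR-58a-3p at -0.56, miR-70-3p at -0.83, miR-48-5p at -0.70, miR-55-3p at -0.60, miR-56-3p at -0.95, miR-42-3p at -0.996, lin-4-5p at -0.89, let-7-5p at -0.78, miR-74-3p at -0.89, miR-238-3p at -0.27, miR-35-3p at -0.57, miR-81-3p at -0.87, miR-52-5p at -0.77, miR-51-5p at -0.51, miR-786-3p at -0.53, miR-243-3p at -0.59, miR-228-5p at -0.74, miR-124-3p at -0.84, miR-237-5p at -0.78, miR-239a-5p at -0.58, miR-246-3p at -0.70. Not past the threshold on that scale were miR-238-5p*, miR-259-3p*, miR-1829a-5p, miR-795-3p*, miR-1829c-5p, miR-64-5p, miR-58a-3p, miR-238-3p and miR-35-3p. Changes of arms under about 10 CPM rest on few reads.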

Other observations

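Other arms that moved belong to none of the lists. miR-77-5p* had 767, 451 and 850 CPM in drsh-1(cdb328) and 2085, 2118 and 2816 CPM in wild type (log2 change -1.76, SE 0.21), while its partner miR-77-3p, one of the more abundant arms, was at -0.24 (SE 0.12, adjusted p = 0.0815). The strand ratio of mir-77 differed (-1.55, SE 0.29, adjusted p = 0.000315). Both strands of mir-231 were lower, miR-231-3p at -1.41 (SE 0.22) and miR-231-5p* at -0.996 (SE 0.22). Among the rises that passed in each of the 5 scalings not based on mir-62 were miR-236-3p, with 343, 319 and 377 CPM in drsh-1(cdb328) and 199, 198 and 205 CPM in wild type (0.79, SE 0.13), and miR-244-5p (0.80, SE 0.14). miR-85-3p, with 16425, 17839 and 17088 CPM in drsh-1(cdb328) and 10361, 10511 and 10480 CPM in wild type (0.71, SE 0.09), was higher with TMM but is not among those 15.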
